A study of Mus musculus with 9 samples.

Results

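The genes described here are 8 components of programmed cell death, chosen by symbol from the deposited expression table: the caspases Casp2, Casp6, Casp8 and Casp9, the caspase activator Apaf1, the caspase inhibitor Xiap, the pore-forming protein Gsdmd and the membrane-rupture protein Ninj1. Each of the 8 had an entry among the 16509 genes of the table, and 8 of 8 passed the filter on low counts that left 11949 genes for testing. Messenger RNA came from MC38, a mouse colon carcinoma cell line, in 3 groups of 3 libraries: vehicle controls (Ctrl), a group given cystine together with copper chloride (Cu-Cys), and a group given Cadict, a copper-cystine nanodrug that also carries glucose oxidase and the EGFR-binding peptide GE11. The labels give the control treatment as DMSO and the study's methods as PBS. Neither states a dose or a time for these libraries, and the table's abbreviation for Cadict was matched to it by its components. Nothing in the labels says that replicates were separate cultures, so p-values measure the spread among these libraries only. In bulk RNA, fewer cells of a type and less RNA per cell cannot be told apart.

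Caspases are proteases made as inactive precursors. Initiator caspases are switched on by assembly on a platform: caspase-9 on the apoptosome that APAF1 forms with cytochrome c, caspase-8 on death receptor complexes, and caspase-2 on the PIDDosome. Executioner caspases then cleave cellular proteins, and XIAP binds and blocks caspases at both levels. In lytic death, a cleaved gasdermin opens pores in the plasma membrane and ninjurin-1 breaks the membrane apart, which releases the cell's contents. Much of this control acts on protein cleavage, which transcript levels do not record.

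Promoter sequences are shown for 4 members, the 2 whose levels moved most closely together over the libraries (Casp6 and Casp9) and the 2 that did not pass the edgeR test under TMM scaling in any comparison (Casp2 and Ninj1). Each is the 150 bases before the annotated transcript start, 5′ to 3′, from RefSeq on GRCm38.p6, with GC boxes (GGGCGG on either strand) and CCAAT boxes (CCAAT on either strand) in capitals. The coordinates are chr3:129901265-129901414 on the plus strand for Casp6, chr4:141793462-141793611 on the plus strand for Casp9, chr6:42264835-42264984 on the plus strand for Casp2 and chr13:49187379-49187528 on the plus strand for Ninj1.
Casp6: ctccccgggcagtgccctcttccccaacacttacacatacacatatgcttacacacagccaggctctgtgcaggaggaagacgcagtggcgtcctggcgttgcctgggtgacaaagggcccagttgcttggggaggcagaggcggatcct
Casp9: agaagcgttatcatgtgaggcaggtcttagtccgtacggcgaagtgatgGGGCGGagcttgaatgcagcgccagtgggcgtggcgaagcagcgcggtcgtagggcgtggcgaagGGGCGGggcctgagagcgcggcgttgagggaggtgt
Casp2: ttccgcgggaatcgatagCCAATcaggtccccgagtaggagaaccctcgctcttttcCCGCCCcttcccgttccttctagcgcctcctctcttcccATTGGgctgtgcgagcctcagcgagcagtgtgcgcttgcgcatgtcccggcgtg
Ninj1: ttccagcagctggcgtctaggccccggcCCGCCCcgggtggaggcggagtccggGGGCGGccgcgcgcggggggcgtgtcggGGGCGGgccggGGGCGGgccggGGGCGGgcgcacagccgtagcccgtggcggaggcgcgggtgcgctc
The stretch of Ninj1 is crowded with GC boxes, that of Casp9 holds a pair, and that of Casp6 holds neither motif.

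The wider windows of 300 bases (250 before the start and 50 after it) covered 7 of the 8 members in 9 windows, 3 of them for Xiap, and Gsdmd had none. A GC box lay in 7 of the 9 windows, against 35.9% of all 32544 windows and 62.8% of the windows of tested genes. A CCAAT box lay in the windows of Casp2, Casp8 and Ninj1 (3 of 9), against 37.4% of all windows and 38.2% of those of tested genes. The TATA box (TATAAA) lay in 1 Xiap window, against 13.6% of all windows and 6.86% of those of tested genes. No member window held the ETS core CCGGAAG (in 8.91% of all windows) or the E-box CACGTG (in 7.17%). In the windows of tested genes these shares were 17.9% and 9.86%. Motifs were read on both strands and counted without regard to overlap with other motifs. The GC box was found for members that fell and for members that did not: it lay in 3 places for Casp6, 4 for Casp9, 3 for Apaf1, 2 for Casp2 and 7 for Ninj1, and in none for Casp8.

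Total estimated counts were alike, 17905769 to 18293060 per library, but their makeup was not: the 100 most abundant genes took 17.2% to 17.4% of counts in Ctrl, 17.9% to 18.2% in Cu-Cys and 29.8% to 31.1% in Cadict libraries. Levels are therefore given as CPM (counts scaled to a common library size) after TMM scaling, which sets libraries to a common level through the bulk of the genes. Scaling by library totals instead shifted the median log2 change over the whole set of tested genes: by -0.95 for Cadict against Ctrl, by -0.88 for Cadict against Cu-Cys and by -0.07 for Cu-Cys against Ctrl. Cadict replicate 2 stood apart from the other 2 Cadict libraries, with a chi-square per degree of freedom of 14.7 and 23.1 against each of them, compared with 3.63 between those 2 and 1.88 to 4.53 within the other groups. Of the epithelial markers, Epcam, Krt18 and Vil1 did not exceed 0.17 TPM, Krt8 reached 0.87 TPM and Cdh1 lay at 1.42 to 2.92 TPM. The mesenchymal markers differed widely, with Vim at 1147 to 2982 TPM, Pdgfrb at 6.82 to 34.9 TPM and Col1a1 at 0.89 to 7.88 TPM. Of the leukocyte markers, Ptprc did not exceed 0.07 TPM in any library, whereas Cd68 lay at 4.48 to 18.2 TPM, with means of 7.05 in Ctrl, 4.95 in Cu-Cys and 15.9 in Cadict libraries, and its part in the results was not tested.

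Most of the members were lower after Cadict than in Ctrl, and none passed the edgeR test as higher. Casp6, Casp8, Casp9, Apaf1, Xiap and Gsdmd fell (6 of 8 at an adjusted p of at most 0.05, quasi-likelihood test of edgeR, Benjamini-Hochberg adjustment over all tested genes), where 47.1% of all tested genes were lower and 40.6% higher. Casp6 was the only member past a 2-fold change at an adjusted p of at most 0.001, where 27.1% of all tested genes were lower and 20.7% higher. The Ctrl and Cadict libraries did not overlap for the same 6 members, and 87.5% of all tested genes were separated in this way. The median log2 change of the 8 members was -0.66, beside -0.13 for all tested genes. For the 6 that fell, the share of all tested genes with a lower value ran from 15.3% for Casp6 to 38.9% for Apaf1. Under library totals all 8 members were lower, as were 73.1% of all tested genes. Past the 2-fold threshold there were then 6 members, beside 51.5% of all tested genes, and the members' median was -1.61, beside -1.08 for all tested genes.

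In Cu-Cys cells 5 members were lower than in Ctrl by small amounts. Casp8, Casp9, Apaf1, Xiap and Gsdmd fell (5 of 8, against 22.4% lower among all tested genes) and 0 rose (against 22.6%). None reached a 2-fold change, as did 1.47% of all tested genes downwards and 0.167% upwards. Libraries of Cu-Cys and Ctrl did not overlap for 6 of 8 members, those 5 and Casp2, beside 61.2% of all tested genes. The median change of the members was -0.18, beside 0.01 for all tested genes. The calls of Casp8 and Gsdmd held with each library left out in turn, whereas those of Casp9, Apaf1 and Xiap did not, so that 2 to 5 members were called.

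Between the treatments, Casp6, Casp8, Casp9, Apaf1 and Xiap were lower in Cadict than in Cu-Cys cells (5 of 8, against 45.6% of all tested genes), and 0 were higher (against 40.3%). Again Casp6 was the only member past 2-fold, where 23.6% of all tested genes were lower and 18.6% higher. Groups did not overlap for 6 of 8 members, these 5 and Gsdmd, beside 85.0% of all tested genes. Under library totals all 8 members were lower, as were 72.0% of all tested genes. The members' median was then -1.24 in place of -0.36, and that of all tested genes -0.98 in place of -0.10. The 3 comparisons share their libraries in pairs, so a fall in 2 of them is not counted as repeated evidence.

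**Figure D1:**
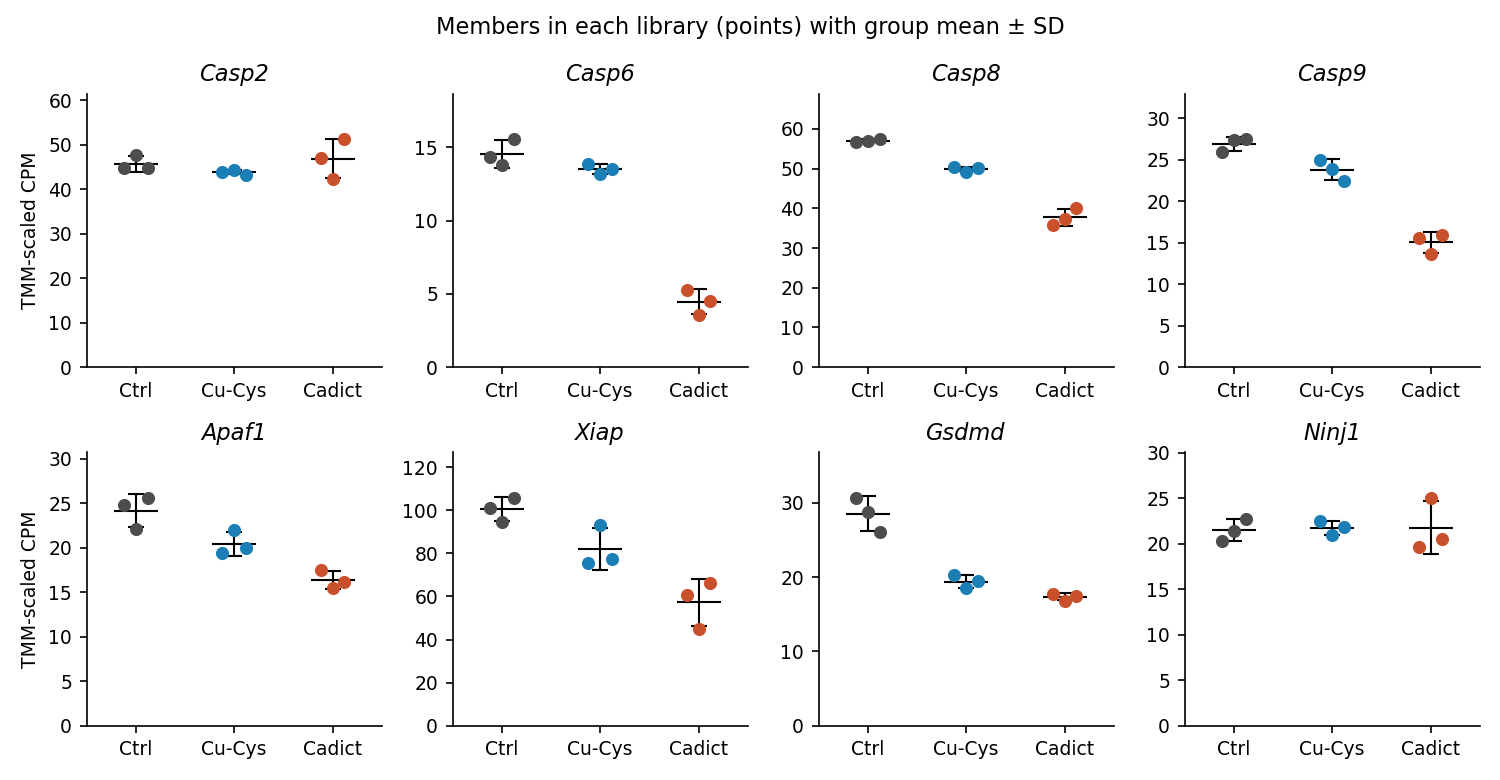
TMM-scaled CPM of each member (y axis, from 0) in the 3 Ctrl, 3 Cu-Cys and 3 Cadict libraries (points), with group mean ± SD. Casp6 stays between 13.2 and 15.6 in Ctrl and Cu-Cys libraries and lies at 3.57 to 5.27 in Cadict libraries, while Ninj1 overlaps in all groups.

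Per transcript length (TPM, mean ± SD, n = 3), Casp8 at 56.3 ± 1.12 and Ninj1 at 56.1 ± 2.48 were the most abundant members in Ctrl cells, and their libraries overlapped. Gsdmd followed at 42.2 ± 4.12, Xiap at 35.1 ± 1.94, Casp2 at 30.5 ± 1.15, Casp6 at 27.1 ± 1.63, Casp9 at 16.1 ± 0.239 and Apaf1 at 9.40 ± 0.608, each separated from the next. Thus the apoptosome protein and its caspase were the least abundant transcripts of the set. In Cu-Cys cells the first pair separated, with Ninj1 at 51.2 ± 2.19 TPM above Casp8 at 45.5 ± 1.27 and no overlap between them. Casp2, Gsdmd and Xiap came together there at 26.5, 25.9 and 25.9 TPM with overlapping libraries. In Cadict cells Ninj1 stood first at 22.6 ± 1.33 TPM, clear of Casp8 at 15.0 ± 2.36. Casp8, Casp2, Gsdmd and Xiap then formed a run in which each overlapped the next (15.0, 12.8, 10.4 and 8.24 TPM). Casp6, sixth in Ctrl, had dropped to 3.38 ± 0.864 TPM and overlapped both Casp9 at 3.67 ± 0.644 and Apaf1 at 2.33 ± 0.280. TPM values depend on the makeup of each library, so the orders within a group are compared here and not the levels between groups.

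**Figure D2:**
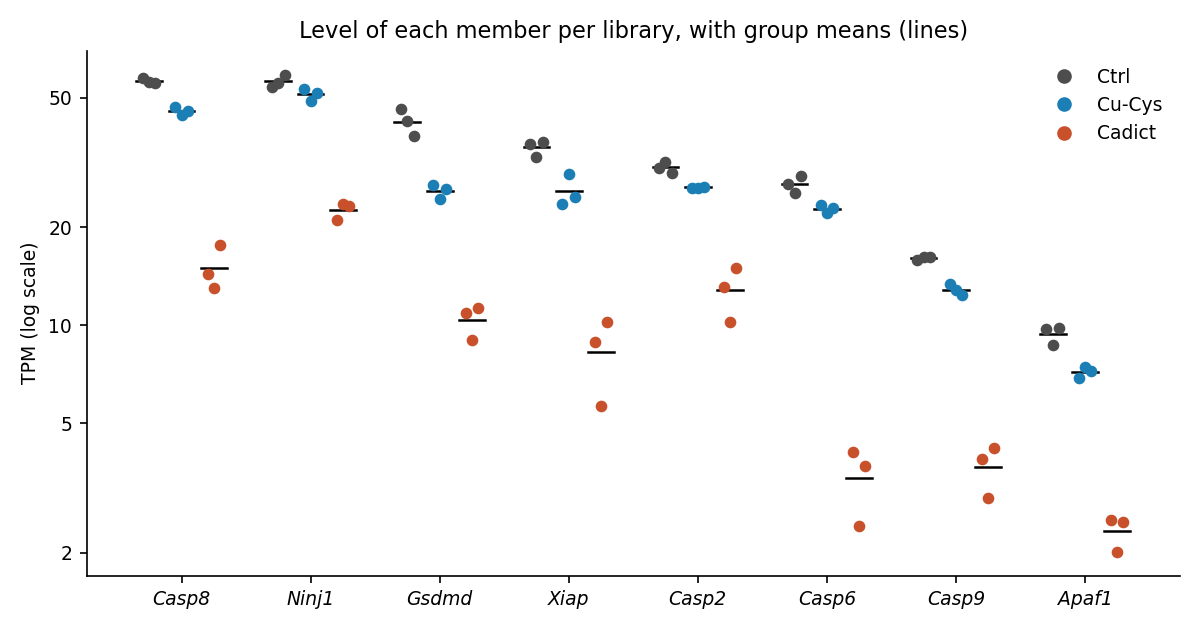
Level of each member in TPM (log axis) per library, with lines at group means, members ordered by their Ctrl level. In Cadict libraries Ninj1 (21.1 to 23.5 TPM) lies above every other member, and Casp6 joins Casp9 and Apaf1 at the lower end.

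Casp6 encodes an executioner caspase that cleaves nuclear lamins, among other substrates. It had 331, 318 and 357 counts in the Ctrl libraries, 301, 289 and 296 in Cu-Cys and 62, 41 and 54 in Cadict. After scaling these were 14.3, 13.8 and 15.6 CPM in Ctrl, 13.9, 13.2 and 13.5 in Cu-Cys and 5.27, 3.57 and 4.53 in Cadict. Ctrl and Cu-Cys overlapped, and every Cadict library lay far below both. The log2 change in Cadict against Ctrl was -1.70 (SE 0.12, 3.25-fold lower, edgeR adjusted p = 1.49e-09), and against Cu-Cys it was -1.60 (SE 0.12, adjusted p = 4.45e-09). The Cu-Cys group differed from Ctrl by -0.10 (SE 0.09, adjusted p = 0.344), with a 95% interval of -0.27 to 0.06. Relative to the median of all tested genes the Cadict change was -1.58 under TMM and under library totals alike.

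Among the initiators, Casp8, the protease of death receptor complexes, stepped down with each treatment. Its levels were 56.8, 56.9 and 57.4 CPM in Ctrl, 50.3, 49.3 and 50.2 in Cu-Cys and 35.9, 37.3 and 40.0 in Cadict. No group overlapped another. The log2 change was -0.19 in Cu-Cys against Ctrl (SE 0.05, edgeR adjusted p = 0.00854) and -0.59 in Cadict against Ctrl (SE 0.06, adjusted p = 7.32e-08). Cadict lay below Cu-Cys by a further log2 change of -0.40 (SE 0.06, adjusted p = 8.16e-06). Of the 50-base stretches of its transcripts, 4.37% also occur in 1 other annotated gene, Gm20257, so a small part of its counts could be split.

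Casp9, the apoptosome's protease, had 25.9, 27.3 and 27.5 CPM in Ctrl, 25.0, 23.9 and 22.4 in Cu-Cys and 15.5, 13.6 and 15.9 in Cadict. The Cadict libraries stood well apart, whereas the highest Cu-Cys library came close to the lowest Ctrl library. The log2 change was -0.84 in Cadict against Ctrl (SE 0.08, edgeR adjusted p = 6.42e-08) and -0.66 in Cadict against Cu-Cys (SE 0.08, adjusted p = 1.45e-06). In Cu-Cys against Ctrl it was -0.18 (SE 0.07, adjusted p = 0.0450). That call was lost without Ctrl replicate 1, 2 or 3 (adjusted p = 0.0633, 0.132 and 0.139), without Cu-Cys replicate 2 or 3 (0.0899 and 0.191) and without Cadict replicate 1 (0.0521). With the replicate number as a block it was lost too (edgeR adjusted p = 0.0733). The same held under DESeq2's size factors (edgeR adjusted p = 0.0843), without a filter beyond 1 count (0.0769) and on TPM plus 0.1 (limma adjusted p = 0.0681). Of its exon bases, 1.81% overlap Cela2a and Ctrc on the opposite strand, and whether counting used strand is not given in the sources used here.

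Casp2 encodes the PIDDosome's caspase, which responds to DNA damage and to surplus centrosomes. Its levels were 44.7, 47.8 and 44.7 CPM in Ctrl, 44.0, 44.3 and 43.3 in Cu-Cys and 47.1, 42.3 and 51.3 in Cadict. The Cadict libraries spread over both other groups. The log2 change in Cadict against Ctrl was 0.04 (SE 0.07, edgeR adjusted p = 0.610, 95% interval -0.10 to 0.17), and it turned to -0.91 under library totals (adjusted p = 4.41e-09) and became 0.16 under DESeq2's size factors (adjusted p = 0.0418). Against the median of all tested genes Casp2 stood at 0.16 under either scaling, but at -0.08 on deposited TPM. In Cadict against Cu-Cys the log2 change was 0.10 (SE 0.07, adjusted p = 0.186), which became 0.16 with an adjusted p of 0.0171 without Cadict replicate 2 and 0.19 with an adjusted p of 0.0168 under DESeq2's size factors. Its Cu-Cys libraries all lay below its Ctrl libraries by a log2 change of -0.06 (SE 0.06, adjusted p = 0.464).

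Apaf1 encodes the scaffold that assembles the apoptosome once cytochrome c leaves mitochondria. Its levels were 24.8, 22.1 and 25.6 CPM in Ctrl, 19.4, 22.0 and 19.9 in Cu-Cys and 17.5, 15.5 and 16.2 in Cadict. Groups did not overlap, although Ctrl replicate 2 and Cu-Cys replicate 2 nearly met. The log2 change was -0.56 in Cadict against Ctrl (SE 0.09, edgeR adjusted p = 1.80e-05) and -0.24 in Cu-Cys against Ctrl (SE 0.08, adjusted p = 0.0182). The Cu-Cys call was lost without Ctrl replicate 1 or 3 (adjusted p = 0.0709 and 0.0933) and without Cu-Cys replicate 1 or 3 (0.0706 and 0.0714). Cadict was lower than Cu-Cys by a log2 change of -0.32 (SE 0.09, adjusted p = 0.00365), a call that DESeq2's Wald test did not make (adjusted p = 0.0667).

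Xiap, whose protein inhibits caspase-9 and some of the executioner caspases, had its widest spread in the treated groups. It had 101.0, 94.6 and 105.9 CPM in Ctrl, 75.6, 93.2 and 77.3 in Cu-Cys and 60.6, 45.0 and 66.2 in Cadict. Cu-Cys replicate 2 lay close to the Ctrl libraries and Cadict replicate 2 far below the other Cadict libraries. The log2 change was -0.81 in Cadict against Ctrl (SE 0.11, edgeR adjusted p = 4.37e-06), and -0.67 without Cadict replicate 2. In Cu-Cys against Ctrl it was -0.29 (SE 0.10, adjusted p = 0.0313), a call lost without Ctrl replicate 1 or 3 (adjusted p = 0.0857 and 0.119) and without Cu-Cys replicate 1 or 3 (0.125 and 0.126). That call was also lost on TPM plus 0.1 (limma adjusted p = 0.0654). Cadict lay below Cu-Cys by a log2 change of -0.52 (SE 0.11, adjusted p = 4.55e-04). The inhibitor thus fell together with the caspase it binds: the TPM ratio of Xiap to Casp9 was 2.18 in Ctrl and 2.20 in Cadict, with overlapping libraries.

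Gsdmd, the gasdermin cut by inflammatory caspases in pyroptosis, showed another pattern. Its counts were 710, 666 and 597 in Ctrl, 439, 404 and 426 in Cu-Cys and 209, 193 and 208 in Cadict. Scaled, it had 30.7, 28.8 and 26.0 CPM in Ctrl, 20.2, 18.5 and 19.4 in Cu-Cys and 17.8, 16.8 and 17.5 in Cadict. Under TMM scaling most of the fall was already present in Cu-Cys cells, and Cadict libraries lay just below them without overlap. Under library totals the log2 change against Ctrl was -0.63 in Cu-Cys and -1.67 in Cadict. The log2 change in Cu-Cys against Ctrl was -0.56 (SE 0.07, edgeR adjusted p = 2.58e-05), the largest of any member in that comparison, and 8.57% of all tested genes had a lower value. In Cadict against Ctrl it was -0.72 (SE 0.08, adjusted p = 4.60e-07), and 35.1% of all tested genes had a lower value. The step from Cu-Cys to Cadict was -0.16 (SE 0.08, adjusted p = 0.0865, 95% interval -0.32 to 0.0043), beside a median of -0.10 for all tested genes, and it passed the threshold under library totals (-1.04) and under other filters on low counts (-0.20 and -0.25).

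Ninj1 encodes the protein that ruptures the plasma membrane in the last step of lytic death. It had 20.4, 21.4 and 22.8 CPM in Ctrl, 22.5, 20.9 and 21.8 in Cu-Cys and 19.6, 25.1 and 20.6 in Cadict. All groups overlapped, and Cadict replicate 2 was the highest library. The log2 change in Cadict against Ctrl was 0.02 (SE 0.09, edgeR adjusted p = 0.875, 95% interval -0.16 to 0.19), -0.10 without Cadict replicate 2 and -0.94 under library totals (adjusted p = 1.80e-08). In Cu-Cys against Ctrl it was 0.02 (SE 0.08, adjusted p = 0.890), and -0.05 under library totals.

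**Figure D3:**
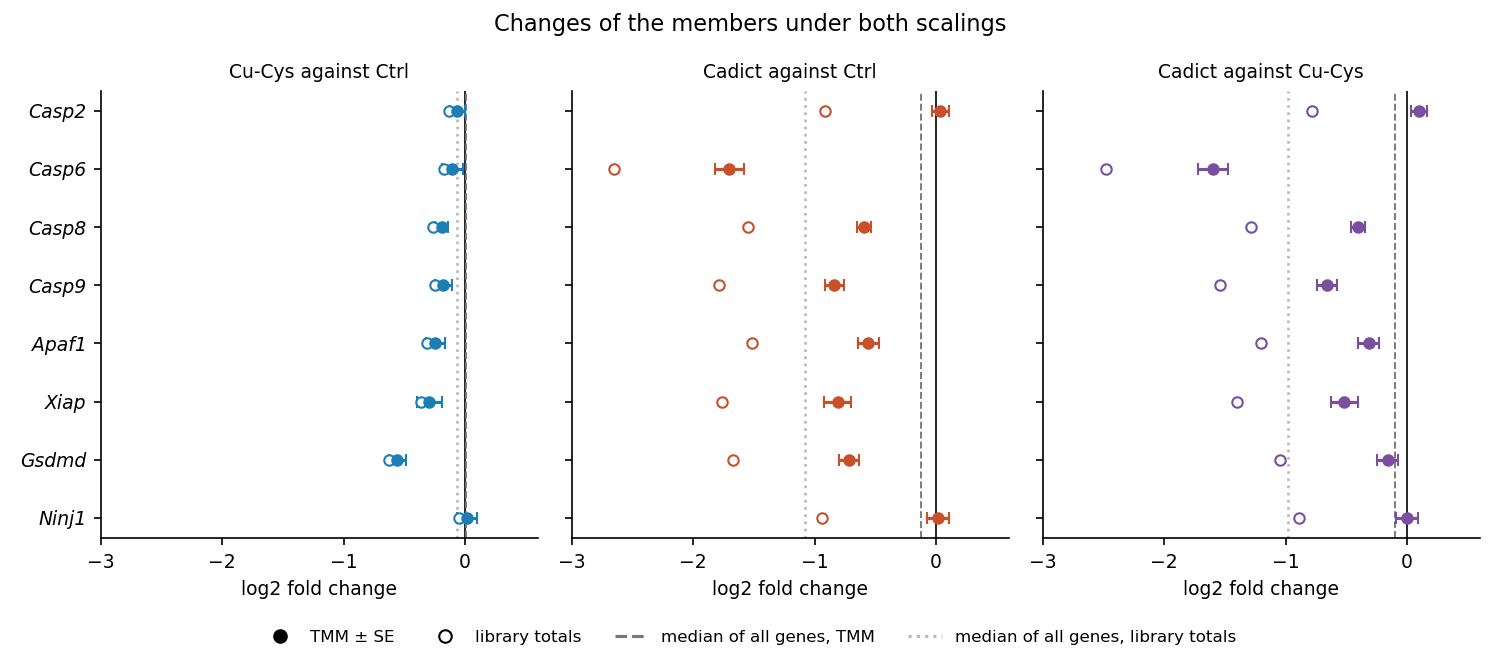
Log2 fold changes of the members in the 3 comparisons, with TMM scaling (filled points, ± SE) and with library totals (hollow points), beside the median of all tested genes under each scaling (dashed and dotted lines). Casp2 (0.04 against -0.91) and Ninj1 (0.02 against -0.94) change sign with the scaling in Cadict against Ctrl, and the other members stay below 0 and below the median of all genes under both.

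Cadict replicate 2 was the lowest Cadict library for 6 of the 8 members (not for Casp8 or Ninj1). Without it the 6 falls in Cadict against Ctrl were still called, with log2 changes from -0.52 for Apaf1 to -1.57 for Casp6. Over the 9 libraries the 6 members that fell followed each other, with Pearson's r of log2 CPM between 0.69 for Casp6 and Gsdmd and 0.98 for Casp6 and Casp9. Casp2 and Ninj1 ran against each other (r = -0.61). These correlations are descriptions over libraries that share the group differences, with 3 libraries per group. Among other genes of at least 10 CPM, those most like Casp6 were Lrp5 and Men1 (r = 0.998 for each), and those most like Casp8 were Snx18 and Capn1 (0.998 and 0.996). Casp9 was followed most closely by Cep57l1 and Lacc1 (0.996 for each), Apaf1 by Bnip3l and Pdp1 (0.987 and 0.981), Xiap by Prkacb and Yes1 (0.987 for each) and Gsdmd by Stard13 and Ggcx (0.995 and 0.990). Likeness was weaker for the members that did not fall, at 0.962 and 0.956 for Casp2 with Ece1 and Cep120 and at 0.866 and 0.862 for Ninj1 with Nt5c and Ptdss1.

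The other genes of these pathways moved in both directions. Of 70 genes in 6 lists, 51 could be tested, and 16 of them rose in Cadict against Ctrl, 27 fell and 8 did not pass, with a median log2 change of -0.28. Over all tested genes 40.6% rose and 47.1% fell, with a median of -0.13, which is the background for the counts of each list. Under library totals the split was 4 higher and 41 lower, where 18.1% of all tested genes were higher and 73.1% lower. Cu-Cys raised 8 and lowered 15 against Ctrl (22.6% and 22.4% of all tested genes), with 13 raised when Cadict replicate 2 was left out of the fit. Between Cadict and Cu-Cys, 17 were higher in Cadict and 22 lower (40.3% and 45.6% of all tested genes). The lists hold none of the 8 members.

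Of the other caspases, 5 of 6 were tested. In Cadict against Ctrl 1 was higher and 3 lower, with a median of -1.06. Under library totals 0 were higher and 4 lower, with a median of -2.01. Casp1, the inflammasome protease, fell in Cadict against Ctrl with a log2 change of -1.85 (edgeR adjusted p = 2.39e-06), as did Casp12, a caspase of the endoplasmic reticulum (-1.18, adjusted p = 4.13e-07). Casp4, which senses bacterial lipopolysaccharide and cuts GSDMD, was lower in Cu-Cys (-0.59, adjusted p = 3.23e-04) and stood at 0.17 in Cadict against Ctrl (adjusted p = 0.151). The Cadict change of Casp4 depended on the scaling. It passed as lower under library totals (-0.78, edgeR adjusted p = 3.24e-06) and as higher under DESeq2's size factors (0.29, edgeR adjusted p = 0.0198). Casp1 had no more than 63 counts in any library.

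The apoptosome and inhibitor-of-apoptosis list had 5 genes higher, 4 lower and 1 that did not pass among 10 tested in Cadict against Ctrl, with a median of 0.15. Under library totals the direction turned, with 1 higher, 7 lower and a median of -0.80. Cycs, which encodes cytochrome c, rose by a log2 change of 2.24 in Cadict (SE 0.07, edgeR adjusted p = 1.31e-13) and by 0.63 in Cu-Cys (adjusted p = 6.68e-06). Birc3 and Birc2, whose proteins ubiquitinate components of the death receptor complexes, fell in Cadict, with log2 changes of -2.45 and -2.0 (adjusted p = 8.13e-12 and 1.80e-11). Cycs itself was still higher under library totals (1.28). Part of its reads is uncertain, since 25.9% of its 50-base stretches occur in the transcripts of other annotated genes.

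On the death receptor and PIDDosome list 4 genes were higher and 8 lower of 14 tested in Cadict against Ctrl, with a median of -0.36. Under library totals 2 were higher and 12 lower, with a median of -1.31. Dedd2, a death effector domain protein, rose by a log2 change of 3.14 (SE 0.11, edgeR adjusted p = 2.34e-13), and Cflar, the catalytically dead relative of caspase-8 that can block it, by 2.3 (SE 0.07, adjusted p = 3.40e-14). Both stayed higher under library totals (2.18 and 1.35), and 7.04% of the 50-base stretches of Cflar occur in other genes. Fas, a death receptor, fell in Cadict (-1.71, adjusted p = 1.01e-08) and in Cu-Cys (-1.07, adjusted p = 3.04e-06).

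Few inflammasome genes were measurable. Of 19 genes on the list of inflammasomes, gasdermins and ninjurins, 6 were tested. In Cadict against Ctrl 1 of them rose and 4 fell, with a median of -0.94. Under library totals 0 rose and 5 fell, with a median of -1.89. Pycard, the adaptor that links sensors to caspase-1, had at most 1 count in a library, Nlrp3 at most 7 and Ninj2, the paralogue of Ninj1, at most 6. Naip2 and Naip5, sensors of bacterial proteins, fell in Cadict, with log2 changes of -2.38 and -1.61 (edgeR adjusted p = 9.16e-12 and 2.00e-05), with the reservation that 19.1% and 36.8% of their 50-base stretches occur in other genes. Nek7, a kinase that helps NLRP3 assemble, also fell (-0.64, adjusted p = 4.31e-08).

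Of the necroptosis list 3 of 5 genes were tested, 2 of them higher and 1 lower in Cadict against Ctrl (median 0.41). Under library totals 1 was higher and 2 lower (median -0.54). Mlkl, which breaches the membrane in necroptosis, rose by a log2 change of 2.0 (SE 0.05, edgeR adjusted p = 4.47e-15), from 157.1 to 628.1 CPM, and by 0.24 in Cu-Cys (adjusted p = 7.37e-04). The latter was 0.10 on TPM with either pseudocount (limma adjusted p = 0.259 with 1 and 0.270 with 0.1). Ripk3, the kinase that activates MLKL, had at most 2 counts in a library. Pgam5, a mitochondrial phosphatase, rose by 0.41 (adjusted p = 6.21e-06) but turned to -0.54 under library totals, and Ticam1, the adaptor TRIF, fell (-0.31, adjusted p = 0.0204). The call of Ticam1 was lost by DESeq2's Wald test (adjusted p = 0.180), under DESeq2's size factors (0.133) and without Cadict replicate 3 (0.123) or Ctrl replicate 2 (0.0504).

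Caspase substrates and downstream effectors had 3 higher and 7 lower of 13 tested in Cadict against Ctrl, with a median of -0.26. Under library totals 0 were higher and 11 lower, with a median of -1.21. Dffa, the inhibitor and chaperone of the apoptotic nuclease, fell with a log2 change of -2.85 (SE 0.14, edgeR adjusted p = 2.35e-11), from 12.3 to 1.71 CPM, with 7.51% of its 50-base stretches shared with other genes. Xkr8, a scramblase that caspases activate, fell (-1.89, adjusted p = 7.10e-07), as did Lmnb1, lamin B1 (-1.31, adjusted p = 2.38e-11). Dffa and Lmnb1 were also lower in Cu-Cys cells (-0.32 and -0.18), and Xkr8 did not pass (0.23, adjusted p = 0.184). The Cu-Cys call of Lmnb1 (adjusted p = 0.0249) was lost without any 1 of the Ctrl or Cu-Cys libraries (adjusted p = 0.0541 to 0.101).

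**Figure D4:**
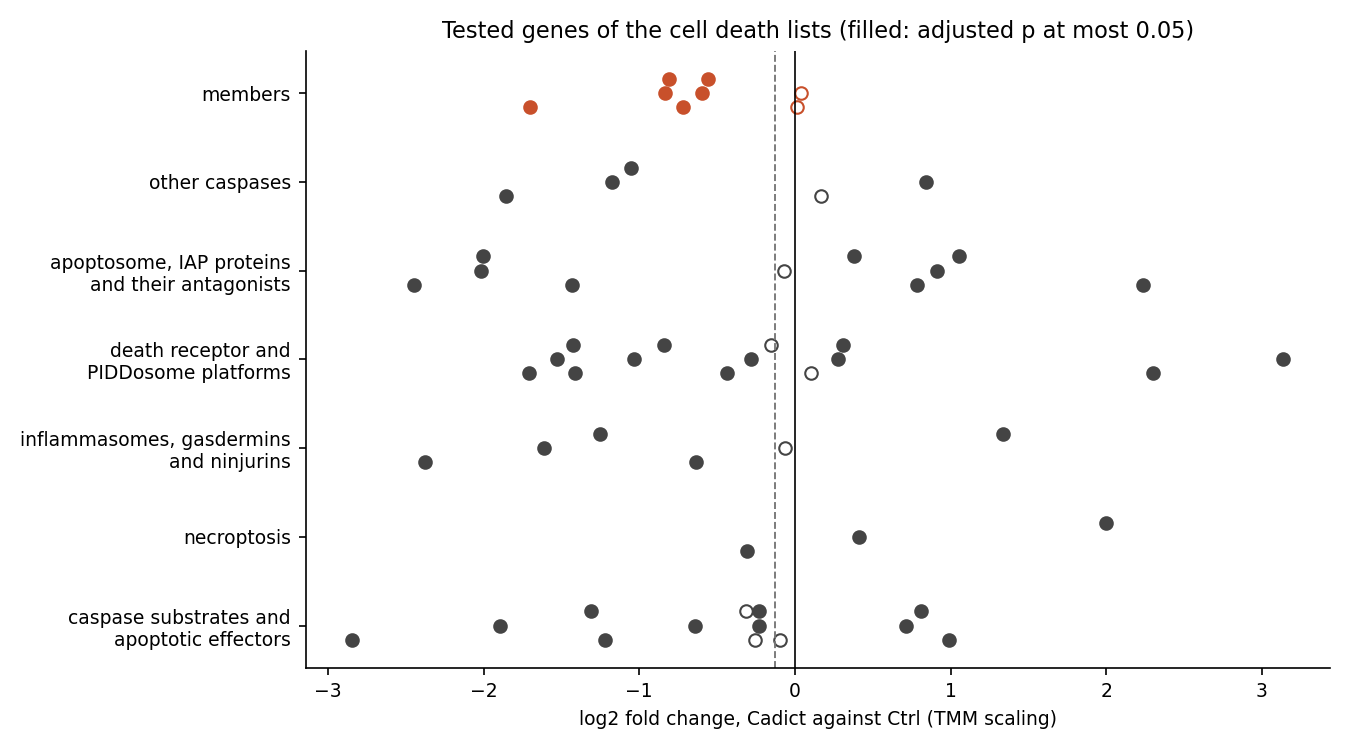
Log2 fold changes in Cadict against Ctrl (x axis, TMM scaling) of the 8 members and of the 51 tested genes in 6 cell death lists, filled where the adjusted p is at most 0.05, with the median of all tested genes (-0.13) as a dashed line. The 6 members with an adjusted p of at most 0.05 all lie left of the median, while the lists spread from -2.85 (Dffa) to 3.14 (Dedd2).

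Ratios between 2 genes within a library do not depend on the scaling between libraries, and 7 of them, chosen after values were seen, were compared in 3 comparisons (21 exact permutation tests, two-sided). With 3 libraries against 3 the smallest p that such a test can give is 0.1, so none could pass 0.05, and the adjusted p of every fully separated ratio was 0.15. The TPM ratio of Cflar to Casp8 was 0.386, 0.374 and 0.371 in Ctrl, 0.474, 0.513 and 0.475 in Cu-Cys and 3.03, 2.63 and 2.75 in Cadict (exact p = 0.1 for each comparison). Transcripts of the inhibitor were thus fewer than those of the caspase in all Ctrl and Cu-Cys libraries and more in all Cadict libraries. The ratio of Cycs to Apaf1 averaged 10.8 in Ctrl, 19.7 in Cu-Cys and 82.8 in Cadict (geometric means), with no overlap between groups.

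Among the initiators, Casp2 over Casp9 lay between 1.82 and 1.95 in Ctrl and between 3.38 and 3.58 in Cadict, again without overlap. For the lytic executors, Ninj1 over Gsdmd was 1.17, 1.31 and 1.55 in Ctrl, 1.97, 2.0 and 1.97 in Cu-Cys and 1.94, 2.62 and 2.06 in Cadict. Both treatments lay above Ctrl for this ratio, and they overlapped each other (exact p = 0.4).

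**Figure D5:**
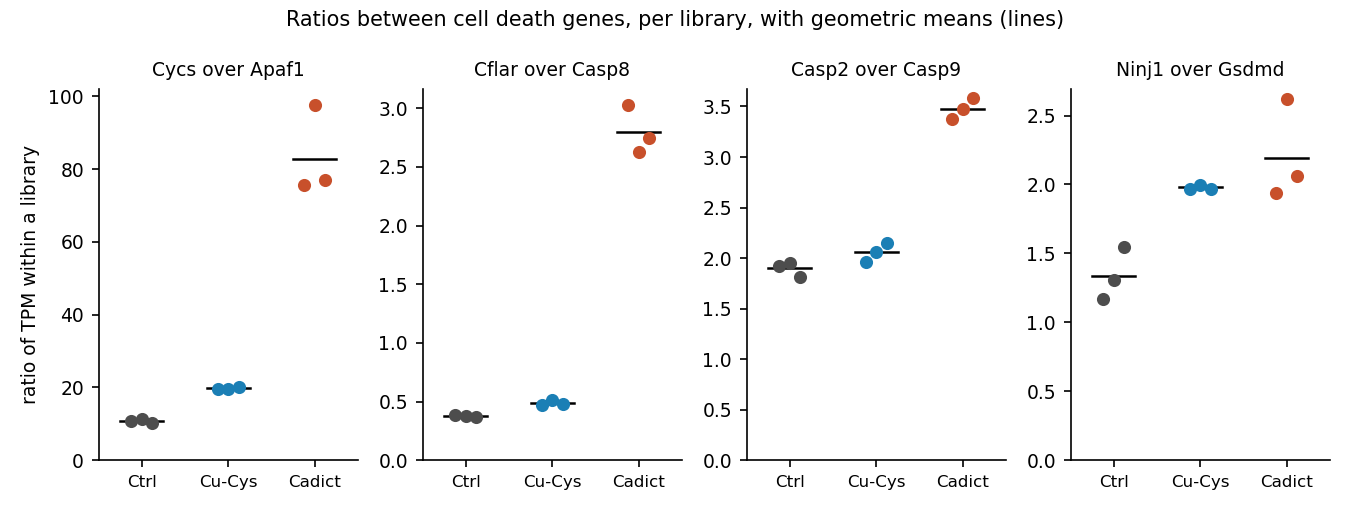
TPM ratios between cell death genes within each library (points, y axes from 0) for the 3 groups, with geometric means as lines. Cflar over Casp8 rises above 1 in Cadict libraries only (2.63 to 3.03), and Ninj1 over Gsdmd is already higher in Cu-Cys libraries (1.97 to 2.0) than in Ctrl libraries (1.17 to 1.55).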

How the data were processed

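The 9 libraries of MC38 cells fell into 3 groups of 3 by their titles. Per the labels, RNA was taken with a column kit and sequenced as DNA nanoballs, whereas the study's methods name TRIzol and an Illumina instrument. The authors deposited expected counts (reads assigned to genes by estimation, without normalization) and TPM values for every gene in each library. The submitters' processing notes list HISAT2 2.1.0, Bowtie2 2.3.4.3, RSEM 1.3.1 and the builds GRCm39 and GRCh38.p13, without their roles. Deposited normalized counts, FPKM and group averages were not used.

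Expected counts were rounded, kept by edgeR's filterByExpr, scaled by TMM and fitted in R 4.3.3 with edgeR 4.0.16 (quasi-likelihood, all 3 groups in 1 model), with Benjamini-Hochberg adjustment of the p-values over 11949 genes. A change passed (was called) where the adjusted p was 0.05 or less, and a stricter threshold was a fold change of at least 2 with an adjusted p of at most 0.001. The members and the 6 pathway lists were chosen with earlier results of these data known. Named were the 8 members, all tested other caspases, the 3 genes per other list with the largest absolute Cadict against Ctrl change at a mean of at least 1 CPM, and the 2 genes most correlated with each member at a mean of at least 10 CPM. Some genes that this rule selects are not reported here. Genes named for being too low to test were added after their values were seen. Shared stretches of 50 bases and exon overlaps came from GENCODE M21 on GRCm38.

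Total counts were 17905769 to 18293060 per library. The limit that a count of 0 allows, 3 counts, is 0.130 to 0.131 TMM-scaled CPM in Ctrl, 0.137 to 0.138 in Cu-Cys and 0.252 to 0.261 in Cadict libraries, and covers counting error only. Alternatives were DESeq2 1.42.0 (size factors and Wald test), library totals, other filters, limma 3.58.1 on log2 TPM plus 1 or 0.1, a replicate block, fits of 2 groups and leaving out each library. Scripts were tested on simulated data with 200 changed genes. These data lacked the shift in makeup of the Cadict libraries, so they do not test the scaling under such a shift. Whether replicate numbers pair libraries is unknown. Deviations of same-numbered libraries from their group means correlated from -0.148 to 0.145. This cannot decide the matter, because deviations from a mean of 3 libraries depend on each other.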

Additional observations from a re-analysis of the deposited data

How the results depend on the processing

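Under alternatives other than leaving out a library, 61 values of the members in Cadict against Ctrl kept direction and side of the threshold. Of the rest, 10 changed sign and 1 gained a call. In Cu-Cys against Ctrl 63 kept both, 4 changed sign and 5 lost a call. In Cadict against Cu-Cys 56 kept both, 6 changed sign, 9 gained a call and 1 lost it. With a library left out, 69, 56 and 68 values kept both in the same order, and 14 in Cu-Cys against Ctrl lost a call. Precision is limited by 3 libraries per group. For values that changed sign, the cause was not tested. Casp2 in Cadict against Ctrl became -0.025 with at least 10 counts in every library, -0.043 without a filter, -0.91 under library totals and -1.27 and -1.21 on TPM with pseudocounts of 0.1 and 1, and ran from -0.035 to 0.10 with a library left out. In Cadict against Cu-Cys it became -0.78 under library totals and -1.06 and -1.01 on TPM. Ninj1 in Cadict against Ctrl became -0.047, -0.065, -0.94, -1.31 and -1.27 in the same order as Casp2, and -0.099 to 0.084 with a library left out. Its change in Cu-Cys against Ctrl became -0.0072 with at least 10 counts, -0.052 under library totals and -0.13 on TPM with either pseudocount (-0.021 to 0.059 with a library left out). In Cadict against Cu-Cys it became 0.086 by DESeq2's Wald test, 0.091 under DESeq2's size factors and 0.0037 with only the 2 groups (-0.12 to 0.066 with a library left out).

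Under library totals, TPM plus 0.1 and TPM plus 1, members past 2-fold numbered 6, 8 and 8 in Cadict against Ctrl and likewise 6, 8 and 8 against Cu-Cys, where 8 members were lower under each. The shares of all tested genes past 2-fold and lower were then 51.5%, 60.3% and 54.2% against Ctrl and 47.7%, 55.5% and 48.4% against Cu-Cys. TPM changed the measure, the normalization and the test together. Pathway genes higher were then 4 under each in both comparisons, and lower 41, 46 and 46 against Ctrl and 40, 44 and 44 against Cu-Cys. In Cu-Cys against Ctrl, TPM plus 0.1 left 3 members lower, beside 24.4% of all tested genes. TPM with either pseudocount left 3 pathway genes higher, and a fit of the 2 groups only gave 13. On TPM plus 0.1 and plus 1, 6.66% and 7.51% of all tested genes were higher. DESeq2's size factors made 1 member, Casp2, higher in both Cadict comparisons. With a library left out, 2 to 5 members were lower and 6 to 13 pathway genes higher in Cu-Cys against Ctrl, and 0 to 1 members higher in Cadict against Cu-Cys. With the replicate block, Casp9 in Cu-Cys against Ctrl kept its change (-0.18) and lost its call (edgeR adjusted p = 0.0733), and no other member's call changed.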
